A study of Caenorhabditis elegans with 2 samples.

Results

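The genes described here build the cell contacts, cell polarity and mechanical attachments of the Caenorhabditis elegans epidermis, and the question was where tagged ELT-3 was recovered on them. They are 32 protein-coding genes, taken by name from a list of adherens junction, polarity, hemidesmosome, basement membrane, spectrin and cell fusion genes, out of 19973 protein-coding genes on the 6 nuclear chromosomes. All 32 names were matched in the annotation (WBcel235, Ensembl release 115). By role, 11 act at the apical junction, 6 in apicobasal polarity, 7 in hemidesmosomes, 3 in the basement membrane, 3 in the spectrin skeleton and 2 in cell fusion.

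ELT-3 is a GATA-type zinc finger transcription factor made in the epidermis, and chromatin immunoprecipitation with sequencing (ChIP-seq) was used to map it. The animals were strain OP75, which carries the mutation unc-119(ed3) on chromosome III and the transgene wgIs75, an eGFP-tagged elt-3. Chromatin came from whole mixed-stage embryos of pooled sex and unknown age, in 2 biological replicates that form the only group. Both replicates carry the same mutation and transgene, and the sequences that drive the transgene are not stated in the labels. Because whole animals were used, signal from epidermal nuclei and from other nuclei cannot be told apart.

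Epidermal cells of the worm are joined by an apical junction that has a cadherin and catenin part and a more basal part organised by AJM-1 and DLG-1. PAR proteins and Crumbs proteins set the apical side, and a spectrin skeleton lies under the membrane and helps to shape the embryo as it elongates. Hemidesmosomes tie the cuticle to the underlying muscle through intermediate filaments and a basement membrane, and fusogens merge epidermal cells into syncytia.

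Each deposited region has a summit, which is the base of strongest signal, and a score from the authors' peak caller with no stated scale, so regions were ranked by score only within a list. The relaxed lists hold peaks and background together, with 19168 regions for replicate 1, 26381 for replicate 2 and 12702 for the pooled replicates. The reproducible list, made from the comparison of replicates, holds 637 regions, and these are the 637 highest of the pooled list, with a lowest score of 42.02. A 5′ window spanned the 1000 bp before and the 500 bp after a gene's annotated start, and an intron was sequence inside a gene and outside all of its exons. Negative offsets lie before that start.

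The sequences below are the 101 bases centred on selected summits: the only reproducible summit in a 5′ window (spc-1), the reproducible summit nearest to lam-1, and pooled summits of dlg-1, unc-52 and eff-1 that both replicates listed. All but the first were chosen after their values had been seen. They were read from the RefSeq WBcel235 genome (ce11), 5′ to 3′ on the strand of the gene. Capitals mark the GATA motif WGATAR, which is GATA preceded by A or T and followed by A or G, found on either strand.
spc-1, 800 bp upstream, chrX:3127829-3127929, minus strand: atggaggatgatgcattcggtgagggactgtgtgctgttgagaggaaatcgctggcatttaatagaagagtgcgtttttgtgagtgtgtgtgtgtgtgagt
lam-1, 2314 bp upstream, chrIV:5170968-5171068, plus strand: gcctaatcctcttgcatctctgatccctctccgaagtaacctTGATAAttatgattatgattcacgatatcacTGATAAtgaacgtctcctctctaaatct
dlg-1, 134 bp upstream, chrX:5479516-5479616, plus strand: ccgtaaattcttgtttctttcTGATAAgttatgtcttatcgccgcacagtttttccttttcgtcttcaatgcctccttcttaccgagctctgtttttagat
dlg-1, 683 bp downstream, chrX:5480333-5480433, plus strand: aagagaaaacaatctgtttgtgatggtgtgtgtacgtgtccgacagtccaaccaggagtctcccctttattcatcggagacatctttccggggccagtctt
unc-52, 6130 bp downstream, chrII:14678276-14678376, minus strand: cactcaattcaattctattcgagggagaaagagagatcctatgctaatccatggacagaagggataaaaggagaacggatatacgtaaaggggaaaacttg
unc-52, 9516 bp downstream, chrII:14674890-14674990, minus strand: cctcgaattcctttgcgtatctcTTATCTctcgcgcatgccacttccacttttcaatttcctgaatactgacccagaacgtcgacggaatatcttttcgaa
eff-1, 757 bp upstream, chrII:8345877-8345977, plus strand: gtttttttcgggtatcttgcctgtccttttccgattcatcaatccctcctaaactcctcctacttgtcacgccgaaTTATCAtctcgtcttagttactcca
The lam-1 window holds the motif at bases 43 to 48 and 74 to 79, both as TGATAA. The upstream dlg-1 window holds TGATAA at bases 22 to 27. The eff-1 window holds it on the opposite strand at bases 77 to 82. The unc-52 window at 9516 bp holds the motif on the opposite strand at bases 24 to 29. The windows of spc-1, of the dlg-1 intron and of unc-52 at 6130 bp have no match in these letters. The printed windows do not represent how often the motif occurs. Of the 30 pooled summits of the 32 genes that both replicates listed, 5 (16.7%) had a match. The ajm-1 summits at 3148 and 19485 bp, also listed by both replicates, had none and are not printed. They scored 28.5 and 28.1, above the printed eff-1 and upstream dlg-1 summits.

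Most of these genes held a listed region, but in the relaxed lists, which include background, and mainly inside introns. In the pooled list 24 of the 32 genes (75%) had a summit in the 5′ window or an intron, against 6438 of all 19973 protein-coding genes (32.2%). In the reproducible list 1 gene, spc-1, had one. The 32 genes have more intronic sequence (median 4506 bp, against 722 bp), which these shares do not allow for. Of their 82 pooled summits, 5 had a q-value under 0.05. The highest-scoring summits after spc-1 belonged to afd-1, dlg-1, vab-10, unc-52 and ajm-1, and all of them were intronic.

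In the reproducible list, 1 of 32 genes had a summit in its 5′ window (3.13%, exact binomial 95% interval 0.0791 to 16.2%), against 1.79% of all protein-coding genes. No gene of the 32 had a reproducible summit in an intron, which by a limit of 3 counts allows a share of up to 9.38%, against 0.721% of all genes. With counts of 1 and 0, neither share can be set apart from the background. In the pooled list, 12 of 32 genes had a summit in the 5′ window (37.5%, interval 21.1 to 56.3%), against 25.4% of all genes. For introns in the pooled list the count was 19 of 32 (59.4%, interval 40.6 to 76.3%), against 12.1% of all genes. In the pooled list the background for 5′ windows lay inside the interval of the 32 genes, and the background for introns lay below it. These counts rest mostly on regions with a high q-value. With a q-value under 0.05 in the pooled list, 1 of 32 genes (spc-1) had a summit in the 5′ window (3.13%), against 3.69% of all genes. At the same q-value 4 of 32 genes (afd-1, dlg-1, vab-10 and unc-52) had one in an intron (12.5%, interval 3.51 to 29.0%), against 1.35% of all genes. This share does not allow for intronic sequence, which is 43539 bp in afd-1, 33469 bp in vab-10, 22883 bp in unc-52 and 1462 bp in dlg-1. The afd-1 summit had no match in replicate 2. The unc-52 summit was close to the limit (−log10 q-value 1.306) and lies 131 bp upstream of another gene, hhat-1.

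In each replicate alone the intron share again exceeded the 5′ window share, unlike over all genes. In replicate 1, 14 of 32 genes had a summit in the 5′ window (43.8%, interval 26.4 to 62.3%), against 33.6% of all genes. In introns of the same replicate the count was 21 of 32 (65.6%, interval 46.8 to 81.4%), against 18.1% of all genes. The background lay inside the interval for 5′ windows of replicate 1 and below it for introns. In replicate 2, 20 of 32 genes had a summit in the 5′ window (62.5%, interval 43.7 to 78.9%), against 41.8% of all genes. Introns of the same replicate gave 26 of 32 (81.3%, interval 63.6 to 92.8%), against 24.0% of all genes. In replicate 2 the background lay below the interval in both places. With the window drawn around any annotated transcript start of a gene, 20 of 32 genes had a pooled summit, against 27.7% of all genes. More starts give more windows per gene, from 1 start in dlg-1 to 14 in ajm-1, and this was not allowed for. A pooled summit in the 5′ window or an intron, with a summit within 100 bp in both replicate lists, was found for 16 of 32 genes (50%, interval 31.9 to 68.1%), against 15.3% of all genes. These intervals cover counting error over genes only.

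**Figure D1:**
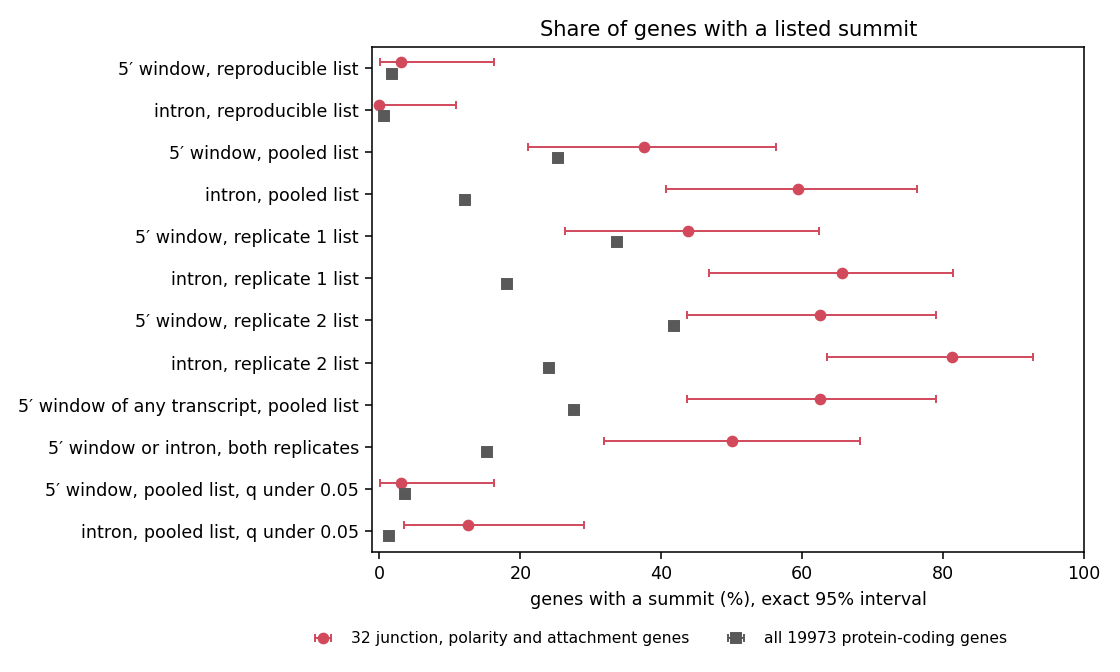
Share of genes (%) with a listed summit, for the 32 junction, polarity and attachment genes (red circles) and all 19973 protein-coding genes (grey squares), by deposited list and place, with the pooled list also at a q-value under 0.05. Bars are exact binomial 95% intervals. For introns in the pooled list, with and without the q-value limit, and in both replicate lists the red intervals lie above the grey squares, and for introns in the reproducible list the count is 0. The shares do not allow for the amount of intronic sequence in a gene.

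These genes are long, and the amount of intronic sequence moved with the intron counts. The median intronic sequence was 4506 bp among the 32 genes and 722 bp among all protein-coding genes. Across the 32 genes, the number of pooled intronic summits followed the amount of intronic sequence with a Spearman rho of 0.59, given as a description. The 6 genes with the most intronic sequence held 59.0% of it and 49 of the 69 pooled intronic summits. Counted per length, pooled summits lay at 20.7 per 100 kb of intron in the 32 genes and at 10.8 per 100 kb in introns of all genes. Replicate 1 gave 25.5 per 100 kb in the 32 genes, against 17.3 in all genes, and replicate 2 gave 35.4, against 25.2. The density was higher in the 32 genes in each of these 3 relaxed lists, by less than the difference in shares of genes. In the reproducible list it was 0 per 100 kb, against 0.465 per 100 kb in all genes. In 5′ windows the pooled density was 29.1 summits per 100 kb for the 32 genes and 17.9 for all genes. Replicate 1 gave 29.1 in 5′ windows of the 32 genes, against 25.3 in all genes, and replicate 2 gave 60.4, against 33.0. The reproducible list gave 2.08, from 1 summit, against 1.05. The gap was smallest in replicate 1 among the relaxed lists. Counting error was not attached to these densities, because the summits share genes and replicates.

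The 32 genes held 82 distinct pooled summits, of which 69 were intronic and 14 lay in 5′ windows, 1 of them in both. The median score was 19.1 (range 14.03 to 59.1) in the 32 genes and 18.3 (range 13.9 to 233) for the summits in 5′ windows and introns of all genes. A summit within 100 bp was present in both replicate lists for 30 of the 82 (36.6%), against 2974 of 7742 (38.4%) for all genes. Of the remainder, 24 were matched in replicate 1 only, 21 in replicate 2 only and 7 in neither. Over the 30 matched summits, the scores of replicate 1 and replicate 2 had a Spearman rho of 0.19, as a description across summits. The authors' q-value was under 0.05 for 5 of the 82 (6.10%), against 833 of 7742 (10.8%) for all genes. The matched share was near that of all genes and the share with a low q-value was below it, and neither difference was tested.

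**Figure D2:**
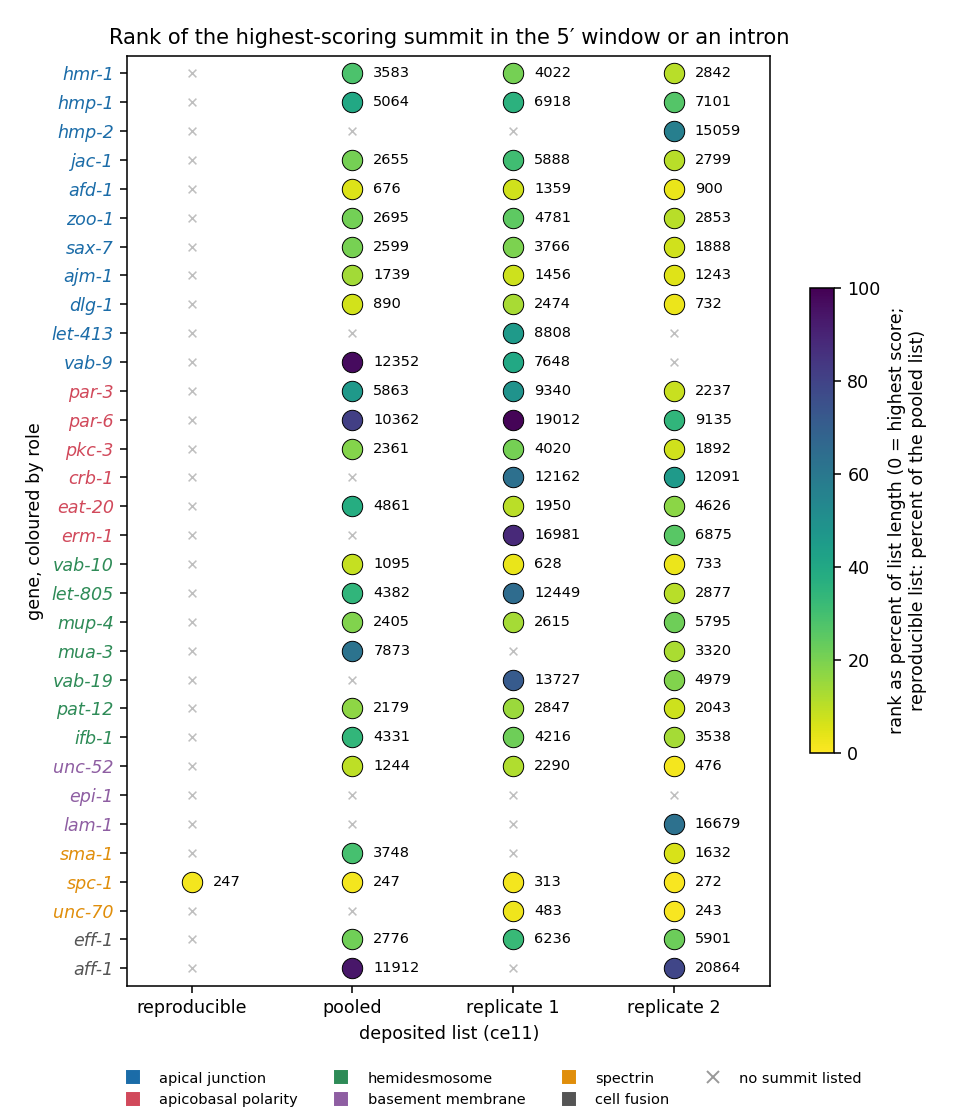
Rank of the highest-scoring summit in the 5′ window or an intron of each of the 32 genes (vertical axis, coloured by role) in the 4 deposited lists (horizontal axis). Colour gives the rank as percent of the length of the list, crosses mark genes with no summit listed, and spc-1 is the only gene with a rank in the reproducible column, 247.

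Among the spectrins, spc-1 encodes α-spectrin, sma-1 the β-heavy spectrin of the apical membrane skeleton and unc-70 the β-spectrin of the basolateral skeleton. The spc-1 gene (WBGene00004951) runs from 3117439 to 3127079 on the minus strand of chromosome X. Its reproducible region, chrX:3127689-3128068, is intergenic, and its summit at 3127879 lies 800 bp upstream of the annotated start, with spc-1 as the nearest protein-coding 5′ end. The pooled score was 59.1 (rank 247 of 12702), and the replicate scores were 33.3 in replicate 1 (rank 313) and 25.3 in replicate 2 (rank 272). The replicate summits lay 802 and 889 bp upstream. It was the only pooled summit in the 5′ window or introns of spc-1, and it ranked among the 637 highest in each replicate list. By contrast sma-1 had 1 pooled summit, 2894 bp into the gene in an intron, with a score of 21.6 (rank 3748). Replicate 2 listed it at 12.9 (rank 1632) and replicate 1 did not list a summit within 100 bp, and the 101 bases around it held 2 matches to WGATAR.

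The unc-70 gene had no pooled summit in either place, although both replicates ranked an intronic region of it highly. In replicate 1 its highest summit scored 29.0 (rank 483) at 7765 bp, and in replicate 2 its highest summit scored 26.2 (rank 243) at 7637 bp, so the summits lay 128 bp apart. The replicate 1 summit lies inside the small nucleolar RNA gene K11C4.6, which is embedded in unc-70, and the replicate 2 summit lies 101 bp from it. The nearest pooled summit was 2429 bp away. The part that the RNA gene plays in the signal was not tested.

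At the apical junction, 9 of 11 genes had a pooled summit in the 5′ window or an intron, against 32.2% of all genes. In the 5′ window the count was 5 of 11, against 25.4%, and in introns 7 of 11, against 12.1%. Intronic sequence, 48927 bp in hmr-1 and 43539 bp in afd-1, was not allowed for in these shares. The group held 41 distinct summits in all. The 2 genes without a pooled summit were hmp-2, the β-catenin, and let-413, the Scribble homologue of the basolateral membrane. Replicate 2 listed a summit 12 bp into hmp-2 at 5.72 (rank 15059), and replicate 1 listed one 206 bp upstream of let-413 at 11.4 (rank 8808). Neither gene had a summit in these places in the other replicate list.

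The highest-scoring junction gene was afd-1, which encodes afadin, an actin-binding partner of junctional membrane proteins. The afd-1 gene (chromosome I, 2160038 to 2209644, plus strand) had 9 intronic pooled summits, and the highest, 19889 bp into the gene, scored 41.1 (rank 676), just under the lowest reproducible score of 42.02. Replicate 1 listed it at 20.6 (rank 1359), and replicate 2 had no summit within 100 bp. A neighbouring summit at 20109 bp scored 26.6 in the pooled list (rank 2105), 9.28 in replicate 1 (rank 15204) and 14.8 in replicate 2 (rank 1158). Within that intron the higher score lay at the first position in replicate 1 and at the second in replicate 2. The highest afd-1 summit of replicate 2 was at 30608 bp, with 16.4 (rank 900), and replicate 1 gave 9.17 there (rank 15641).

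The Discs large homologue dlg-1, which organises the basal part of the apical junction together with AJM-1, had 3 pooled summits around its start. The gene (chromosome X, 5479700 to 5484941, plus strand) is short, with 1462 bp of intronic sequence. Its highest summit, in an intron at 683 bp, scored 36.7 in the pooled list (rank 890), 17.2 in replicate 1 (rank 2474) and 17.8 in replicate 2 (rank 732). The summit 134 bp upstream, which carries TGATAA, scored 20.5 in the pooled list (rank 4324), 11.6 in replicate 1 (rank 8430) and 10.1 in replicate 2 (rank 3286). Both were therefore listed by both replicates, whereas the summit 945 bp upstream, with a pooled score of 14.1 (rank 12309), was matched in replicate 2 only, at 6.29.

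The ajm-1 gene, whose coiled-coil protein marks the same part of the junction, spans 9082946 to 9113619 on the plus strand of chromosome X and has 14 annotated transcript starts. It held 7 intronic pooled summits and none in its 5′ window. The highest, at 3148 bp, scored 28.5 (rank 1739), with 12.98 in replicate 1 (rank 6060) and 14.4 in replicate 2 (rank 1243). The next, at 19485 bp, scored 28.1 (rank 1808), with 20.2 in replicate 1 (rank 1456) and 6.72 in replicate 2 (rank 10269). The replicates gave the 2 sites in opposite order. Another ajm-1 summit, at 8718 bp with a pooled score of 17.6, lies 36 bp from a small structural RNA gene.

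The L1CAM-type adhesion gene sax-7 (chromosome IV) had 4 pooled summits. Its highest, at 5381 bp in an intron, scored 24.7 (rank 2599) and 11.5 in replicate 1 (rank 8735), with no replicate 2 summit within 100 bp. The summit 523 bp upstream scored 22.7 in the pooled list (rank 3259), 11.1 in replicate 1 and 12.4 in replicate 2 (rank 1888). For sax-7 the upstream summit, not the highest one, was the one found in both replicates.

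The p120 catenin gene jac-1 (chromosome IV) had 7 pooled summits, 6 of them intronic. Its highest, at 10850 bp, scored 24.5 (rank 2655), with 11.8 in replicate 1 (rank 8072) and 9.80 in replicate 2 (rank 3615), and held 1 match to WGATAR. Its summit at 4073 bp, with a pooled score of 23.3, lies 142 bp from a small structural RNA gene. The ZO-1 homologue zoo-1 (chromosome I) had a single pooled summit, 646 bp upstream, which scored 24.4 (rank 2695), with 14.05 in replicate 1 (rank 4781) and 10.7 in replicate 2 (rank 2853).

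The cadherin gene hmr-1 (chromosome I), which spans 58913 bp, had 8 intronic pooled summits with scores of 14.4 to 21.9, and 1 of the 8 was matched in both replicates. The α-catenin gene hmp-1 had 1 pooled summit, 741 bp upstream, at 19.5 (rank 5064), matched in replicate 2 only. The claudin-like gene vab-9 had 1 intronic pooled summit at 14.1 (rank 12352), matched in neither replicate. Within the cadherin and catenin core of hmr-1, hmp-1 and hmp-2, the highest-scoring pooled summit thus stood at rank 3583, in hmr-1.

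**Figure D3:**
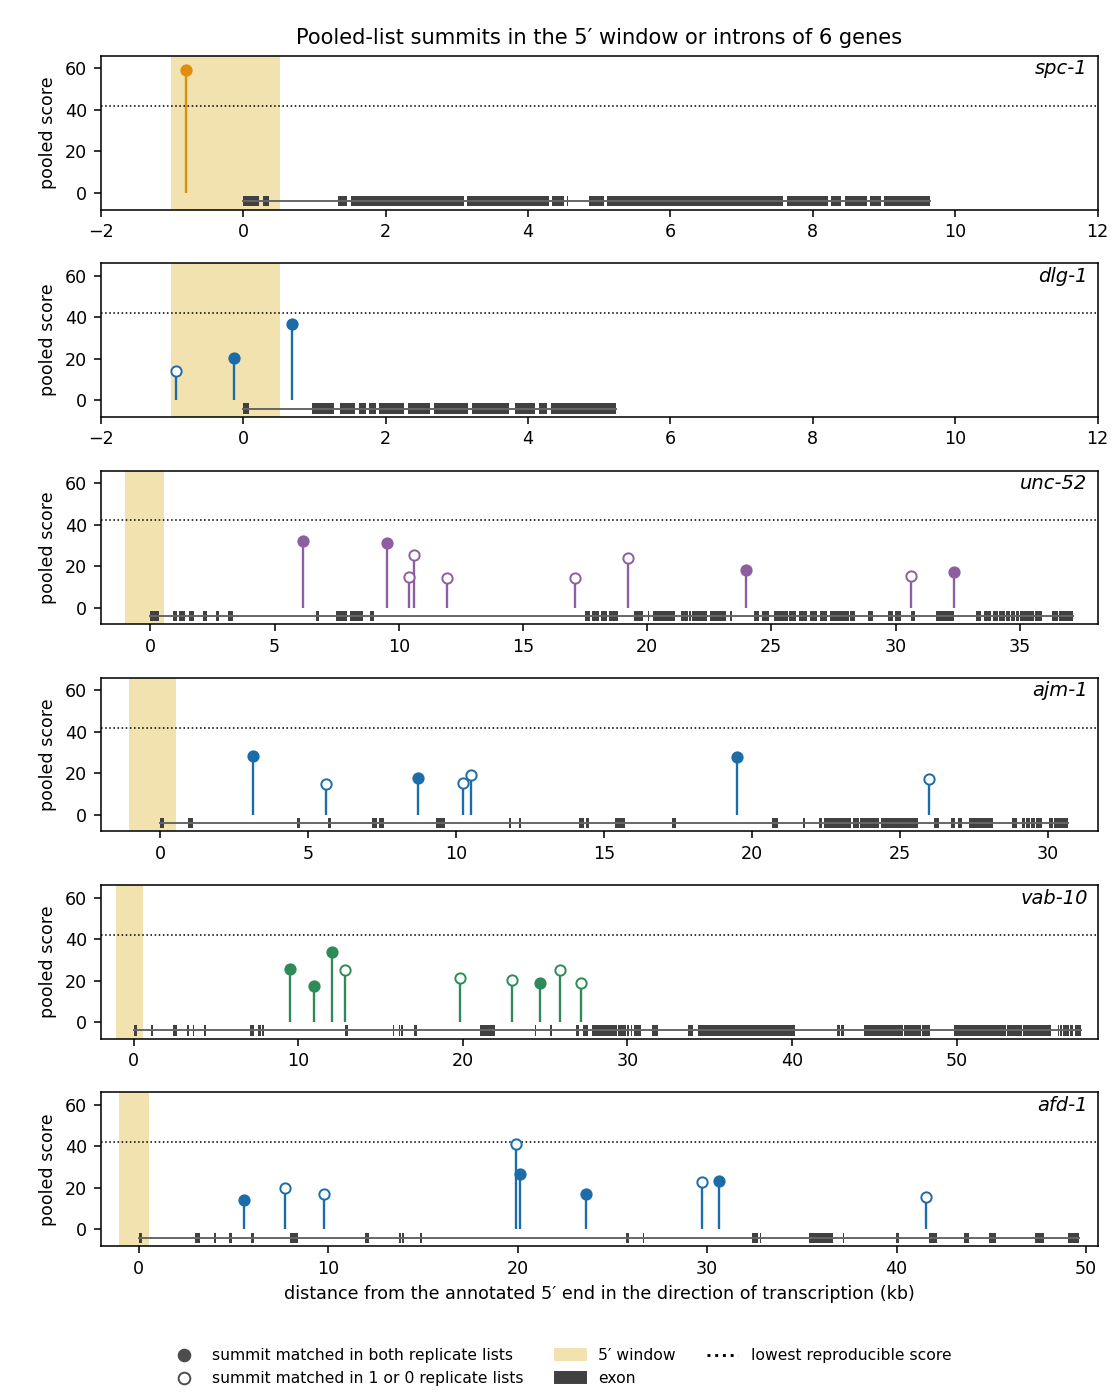
Pooled scores (vertical axis) of summits in the 5′ window or introns of spc-1, dlg-1, unc-52, ajm-1, vab-10 and afd-1 against distance in kb from the annotated start, in the direction of transcription. Filled heads were matched in both replicate lists, open heads in 1 or 0, black boxes are exons, shading is the 5′ window and the dotted line is the lowest reproducible score, 42.02, which only the spc-1 summit exceeds.

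In the polarity group, 4 of 6 genes had a pooled summit in either place, against 32.2% of all genes. In the 5′ window the count was 1 of 6, against 25.4%, and in introns 4 of 6, against 12.1%. Intronic sequence was not allowed for in these shares. Counted per length, the polarity group had 11.6 pooled intronic summits per 100 kb, against 10.8 in introns of all genes. The apical junction and hemidesmosome groups had 19.8 and 21.7 per 100 kb. The polarity group held 5 distinct summits. The atypical protein kinase C gene pkc-3 (chromosome II) had the highest, 135 bp upstream of its start. It scored 25.5 in the pooled list (rank 2361), 14.8 in replicate 1 (rank 4020) and 12.4 in replicate 2 (rank 1892). Its partners scored lower. The PDZ scaffold genes par-3 and par-6 had intronic summits of 18.5 and 15.0, each matched in replicate 2 only, and the Crumbs-like eat-20 had one of 19.8, matched in replicate 1 only. The Crumbs gene crb-1 and the ezrin, radixin and moesin homologue erm-1 had no pooled summit. The highest crb-1 summits ranked 12162 in replicate 1 and 12091 in replicate 2, and those of erm-1 ranked 16981 and 6875 in the same lists. Of the 6 polarity genes, pkc-3 alone had a summit found in both replicates.

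In the hemidesmosome group, 6 of 7 genes had a pooled summit in either place, against 32.2% of all genes. In the 5′ window the count was 3 of 7, against 25.4%, and in introns 5 of 7, against 12.1%. Intronic sequence, 33469 bp in vab-10, was not allowed for in these shares. The group held 21 distinct summits. The spectraplakin gene vab-10, whose protein links intermediate filaments and microtubules to the attachment, held 9 of these, all intronic. The gene lies on the minus strand of chromosome I, from 11747424 to 11804991. Its highest summit, at 12047 bp, scored 33.9 in the pooled list (rank 1095), 20.1 in replicate 1 (rank 1471) and 12.8 in replicate 2 (rank 1708), and it falls in the window of an internal transcript start of vab-10. A summit at 12834 bp had the highest vab-10 score in replicate 1, 26.4 (rank 628), and no match in replicate 2. The highest in replicate 2 was at 25937 bp, with 17.8 (rank 733), and it had no match in replicate 1. As for afd-1, the strongest site of the gene differed between replicates.

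The pat-12 gene, which encodes a hemidesmosome component needed for attachment, had 4 intronic pooled summits. The highest, at 2209 bp (chromosome III), scored 26.2 (rank 2179), with 16.5 in replicate 1 (rank 2847) and 9.40 in replicate 2 (rank 4097). The apical matrix receptor gene mup-4 (chromosome III) had an intronic summit at 694 bp that scored 25.4 (rank 2405), with 16.9 in replicate 1 (rank 2615) and 6.90 in replicate 2 (rank 9681). Both summits were found in both replicates.

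The other apical matrix receptor gene, mua-3, had 1 pooled summit, 998 bp upstream at 16.7 (rank 7873), but its nearest 5′ end was that of K08E5.5. It was the only 1 of the 14 summits in 5′ windows whose nearest 5′ end belonged to another gene. Over all 82 pooled summits, introns included, the nearest protein-coding 5′ end was that of the listed gene for 51. The basal receptor gene let-805, for myotactin, had a summit in a coding exon at 28 bp that scored 20.5 (rank 4382), with 10.05 in replicate 1 and 8.2 in replicate 2. The intermediate filament gene ifb-1 had 3 intronic summits, at most 20.5, and none was matched in both replicates. The ankyrin repeat gene vab-19 had no pooled summit.

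Of the 3 basement membrane genes, 1 had a pooled summit in either place, against 32.2% of all genes. That gene, unc-52, held 10 pooled summits, all intronic, whereas the laminin genes epi-1 and lam-1 held none. Intronic sequence was 22883 bp in unc-52, 1222 bp in epi-1 and 4514 bp in lam-1, and these counts do not allow for it. The unc-52 gene encodes perlecan, the heparan sulfate proteoglycan between epidermis and muscle, and lies on the minus strand of chromosome II from 14647321 to 14684456. Its highest summit, at 6130 bp, scored 32.2 in the pooled list (rank 1244), 17.5 in replicate 1 (rank 2290) and 13.2 in replicate 2 (rank 1546). That position is 131 bp upstream of hhat-1, a gene inside the span of unc-52, and nearness alone does not assign it to either gene. The summit at 9516 bp scored 31.1 in the pooled list (rank 1354), 9.56 in replicate 1 (rank 14135) and 21.0 in replicate 2 (rank 476). Both unc-52 summits were found in both replicates, with the order reversed between them.

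The laminin α gene epi-1 had no summit in its 5′ window or introns in any of the 4 lists, the only 1 of the 32 genes without one. The laminin β gene lam-1 had only weak summits in replicate 2, at most 5.45 (rank 16679). A reproducible region did lie outside its window, at chrIV:5170828-5171207 with the summit 2314 bp upstream. It scored 66.2 in the pooled list (rank 190), 50.2 in replicate 1 (rank 90) and 17.5 in replicate 2 (rank 768). The region is intergenic, lam-1 has the nearest protein-coding 5′ end, and its 101 bases hold the 2 TGATAA matches printed above. It scored higher than the spc-1 region in the pooled list and in replicate 1, and lower in replicate 2.

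A second reproducible region lay 1404 bp upstream of hmp-2, at 51.7 in the pooled list (rank 367), 22.3 in replicate 1 (rank 1053) and 25.9 in replicate 2 (rank 252). Its nearest 5′ end is that of K05C4.7, 224 bp away. Within 10000 bp of the annotated start, spc-1, lam-1, hmp-2 and mup-4 had a reproducible summit, or 4 of 32 genes (12.5%), against 11.2% of all genes.

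Both fusogen genes had a pooled summit in the 5′ window, against 25.4% of all genes. The eff-1 gene, which drives fusion of the main epidermal syncytium, had its highest summit 757 bp upstream, at 24.1 in the pooled list (rank 2776), 12.8 in replicate 1 (rank 6236) and 8.29 in replicate 2 (rank 5901), with the TGATAA match printed above. The aff-1 gene, needed for fusion of other cells, had a summit 15 bp upstream at 14.3 (rank 11912), listed in replicate 2 at 4.85 and not in replicate 1. Only the eff-1 summits were matched in both replicates.

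**Figure D4:**
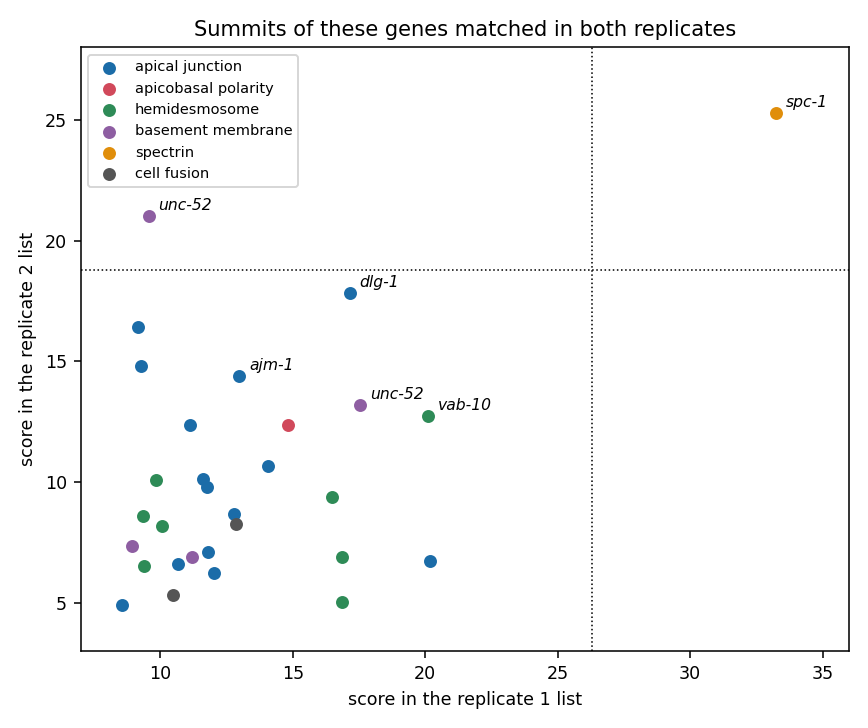
Replicate 2 score against replicate 1 score for the 30 pooled summits of the 32 genes that have a summit within 100 bp in both replicate lists, coloured by role. Dotted lines mark the score of the 637th region of each list, 26.3 in replicate 1 and 18.8 in replicate 2, and only the spc-1 summit, at 33.3 and 25.3, lies above both.

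The GATA motif occurred at the pooled summits of these genes at a share near that of the sequence beside them. At the summits of replicate 2 alone the share was higher than beside them. A match to WGATAR lay within 50 bp of 17 of the 82 summits (20.7%, exact binomial 95% interval 12.6 to 31.1%), against 33 of 164 flanking windows (20.1%) centred 500 bp to either side. In replicate 2 alone, limited to its highest regions up to the length of the pooled list, it lay at 26 of 81 summits (32.1%, interval 22.2 to 43.4%), against 34 of 162 flanks (21.0%). In replicate 1 alone, limited likewise, it lay at 14 of 69 summits (20.3%, interval 11.6 to 31.7%), against 27 of 138 flanks (19.6%). The share over these genes thus differed between replicates, but the 2 intervals overlap. Over all genes, limited likewise, it was 23.4% in replicate 2 alone and 24.2% in replicate 1 alone, so the replicates were close there. The difference between replicates was not tested. For pooled summits in 5′ windows and introns of all genes, 1889 of 7742 (24.4%) had a match, against 19.9% of their flanks. Among the 30 summits matched in both replicates, 5 of 30 (16.7%, interval 5.64 to 34.7%) had a match, against 13 of 60 flanks (21.7%). For such summits of all genes the share was 27.3%, against 19.9% of their flanks. In 5′ windows of the 32 genes it was 4 of 14 (28.6%), against 28.6% of their flanks and 25.2% of such summits of all genes. In their introns it was 13 of 69 (18.8%), against 18.8% of their flanks and 23.2% of such summits of all genes. Among the 12 genes with the highest pooled scores, only jac-1 had a match at its highest-scoring pooled summit. The letters TGATAA, which are part of WGATAR, were found at 8 of the 82 (9.76%), against 9.15% of the flanks. The rearranged sequence WGTAAR, searched the same way, was found at 18.3% of the summits, against 21.3% of the flanks.

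A wider list of 70 other epidermal attachment and morphogenesis genes was counted in the same way. Of these, 3 had a reproducible summit in the 5′ window (4.29%) and 2 in an intron (2.86%), against 1.79% and 0.721% of all genes. In the pooled list 26 had one in the 5′ window (37.1%) and 28 in an intron (40.0%), against 25.4% and 12.1% of all genes. The reproducible counts are small and rest on 4 summits, since that of efn-2 is counted in both places. No intervals were computed for the 70 genes, their length was not allowed for, and no difference from all genes was tested. The innexin gene inx-12 (chromosome I), a gap junction subunit, had a reproducible summit 179 bp upstream, at 56.1 in the pooled list (rank 287), 33.7 in replicate 1 and 25.3 in replicate 2. The gex-3 gene (chromosome IV), part of the WAVE complex of actin regulators, had one 751 bp upstream at 52.3 (rank 348), 25.8 and 27.8, with 4 matches to WGATAR. The ephrin gene efn-2 (chromosome IV) had one at 404 bp, in both the 5′ window and an intron, at 48.3 (rank 435), 26.8 and 20.2. The hemicentin gene him-4 (chromosome X) had an intronic one at 26116 bp, at 55.7 (rank 291), 32.9 and 25.6, and it lies 21 bp from a small structural RNA gene. All 4 scored below spc-1 in the pooled list, and both replicates listed each of them. The summits of inx-12 and him-4 had no match to WGATAR, and that of efn-2 had 1.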

How the data were processed

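ChIP-seq of tagged ELT-3 was analysed from the authors' deposited region lists on ce11. The column called signal value is a score of the authors' caller, and the authors also deposited a −log10 q-value for each region. Per the file headers, relaxed lists were called for each replicate and for pooled replicates with a control, and the reproducible list was derived from them by the irreproducible discovery rate. Not given in the sources used here are the aligner, the caller and the thresholds. Read depth is unknown from these lists, and control data and the ce10 lists were not used here.

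Chromosome names were matched between ce11 and the WBcel235 reference, and every region ended inside its chromosome. Summits were assigned to genes with Python 3.11.15, numpy 2.4.6, pandas 2.3.3, scipy 1.17.1 and matplotlib 3.10.9, after the scripts had been tested on planted data. Annotated starts of trans-spliced genes can lie after the true start of transcription. Shares carry exact binomial 95% intervals, and no test was made, since there is 1 group. Of 72 pathway symbols 2 were not matched. Full values were given for genes with a reproducible summit and for the 12 genes with the highest pooled scores, and the other values and the genes near the windows were picked after they were seen. The genes and lists were chosen with earlier results of these data known.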

Additional observations from a re-analysis of the deposited data

How the results depend on the processing

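Of 56 alternatives, 38 kept the count or share close to the one reported and 18 moved it. Those set at a window of 3000 bp, at a q-value under 0.05, on the replicate lists without the pooled one, and without summits near small RNA genes were chosen after seeing the data. The count of 1 gene with a reproducible summit in the 5′ window became 0 with 500 bp upstream, 2 with 2000 bp, 3 with 3000 bp and 2 in a pooled list limited to 4 times as many regions, and stayed at 1 to 1 without either replicate. The count of 0 in introns became 2 without replicate 1 (unc-52 and unc-70), 2 without replicate 2 (vab-10 and unc-70) and 7 in that longer list. For these counts without a replicate, the 637 highest regions of the other replicate stood in for the reproducible list. Both unc-70 summits lie in or near the small nucleolar RNA gene K11C4.6. The 12 genes with a pooled summit in the 5′ window became 6 with 500 bp upstream, 20 with any transcript start and 1 at a q-value under 0.05, and 12 to 16 without a replicate. The 19 with a pooled intronic summit became 4 at a q-value under 0.05 and 18 to 22 without a replicate. The 14 genes of replicate 1 with a summit in the 5′ window became 9 with 500 bp upstream, 22 with 2000 bp, 22 with any transcript start and 9 in the higher-scoring part of the list. The 20.7% of summits with WGATAR became 9.76% for TGATAA, 41.5% within 100 bp, and 20.3 to 32.1% without a replicate, the higher value without replicate 1. The cause of these shifts was not tested beyond what each alternative changes by construction. No paired analysis was possible because there is 1 group and no test. Relaxed lists contain background by design, score scales differ between lists, and 2 replicates give no estimate of spread at a site.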

Other observations

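The unc-70 intronic region stood apart in how the lists treated it. Among the 637 highest regions of each replicate, 349 summits of replicate 1 lay within 200 bp of one of replicate 2. Of these 349, 1 had no pooled summit within 200 bp, and it was the unc-70 summit.

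Further reproducible summits lay near 2 other genes without falling in their windows or introns. One lay 9419 bp upstream of mup-4, with a pooled score of 46.3 (rank 487) and cgh-1 as the nearest 5′ end. The other lay 14873 bp downstream of the par-3 start, past the end of the gene, with a pooled score of 56.1 (rank 286) and ska-3 as the nearest 5′ end.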
